A study of Rattus norvegicus with 6 samples.

Results

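The transcription factor Nrf2 (gene Nfe2l2) drives a group of antioxidant and detoxifying genes, and 10 of these were followed here in rat pituitary cultures with and without gonadotropin-releasing hormone (GnRH). They were Slc7a11, Gclc, Gclm, Gsr, Txnrd1, Prdx1, Srxn1, Hmox1, Nqo1 and Sqstm1. Members were all probe sets (groups of short probes against 1 transcript) to which the array annotation gave only 1 of these symbols. This selected 9 of the 10 genes, of 14217 genes named on the array, with 16 of 31042 probe sets. The probe set annotated to Prdx1 also lists a second gene and was not used, so Prdx1 has no value here. Txnrd1 and Gclc had 2 probe sets each, Srxn1 had 3, Sqstm1 had 4 and the other 5 genes had 1, and probe sets of the same gene share a target and are not independent of each other.

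In resting cells Keap1 holds Nrf2 in the cytoplasm and presents it to a Cul3 ubiquitin ligase, which marks it for degradation. Oxidants and electrophiles modify Keap1, and Nrf2 then accumulates, pairs with a small Maf protein and binds antioxidant response elements near its target genes. The targets supply cystine and glutathione, keep thioredoxin and peroxiredoxins reduced, break down heme and reduce quinones, and protein folding with disulfide formation in secretory cells such as those of the pituitary is one source of peroxide.

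The material was organ cultures of rat pituitary, with a separate array for every sample. The control group had 3 samples with no agent named, and the treated group had 3 samples given 10 nM GnRH, the hypothalamic peptide that stimulates the gonadotropes. The comparison asked which transcripts differ between them. The labels used here give no strain, age, sex or treatment time, and they do not state whether the samples of a group were separate animals or cultures, so p-values cover the variation among these 6 arrays, part or all of which may be technical. Values below are log2 of the deposited intensity unless stated otherwise, and a level is read only against the same probe set on other arrays. In whole tissue, fewer cells of a type and less RNA per cell cannot be told apart.

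The hormone genes that define the gland (Gh1, Prl, Pomc, Tshb, Lhb, Fshb and Cga) were all measured, with a summed level of 15.58 to 15.75 on the log2 scale across the 6 arrays. Control 3 stood apart from the other controls. Its correlation with controls 1 and 2 over all probe sets was 0.983 and 0.986, against 0.994 between those 2 arrays, and was higher with the GnRH arrays, at 0.988 to 0.991. The mean level of Xist, the RNA of the inactive X chromosome of female cells, separated the arrays in the same way: controls 1 and 2 had 4.12 and 3.98, the third control had 7.34 and the GnRH arrays 7.14 to 7.16. Eif2s3y, a gene of the Y chromosome, ran the other way, at 6.48 and 6.56 in controls 1 and 2 but 2.76 in control 3 and 2.06 to 2.42 with GnRH. Sex-linked transcripts therefore divide controls 1 and 2 from the other 4 arrays. With all 6 arrays, GnRH and the Xist level are thus partly mixed in every difference below. In every fit without control 3 they cannot be told apart, so such a fit does more than remove an outlying array. Results below are given with and without control 3 wherever that array decides them.

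The letters known as the binding element of Nrf2 are shown first, because binding there gives the gene group its name. RefSeq promoter sequences of build GRCr8 were matched by symbol for 8 of the 10 genes, with 9 transcription starts since Txnrd1 has 2; Hmox1 and Gsr were the others. In the 250 bases before each start, both strands were searched for TGACNNNGC, the core of the antioxidant response element, and for TGAGTCA, the AP-1 site, which can overlap it. Of all 33469 start windows of this length, 10.1% held the first motif and 4.05% the second. Gclm, Prdx1 and 1 of the 2 Txnrd1 starts held TGACNNNGC, all on the strand opposite the gene, so that the capitals read as its reverse complement. Prdx1 and Srxn1 held TGAGTCA. The windows below show 1 match for each gene in capitals with 20 bases on either side, 5′ to 3′ along the gene. For Prdx1 the capitals mark TGACNNNGC, which contains a TGAGTCA match; its other TGAGTCA match, 248 to 242 bases before the start, is not shown.
Gclm, chr2:213031943-213031991, plus strand: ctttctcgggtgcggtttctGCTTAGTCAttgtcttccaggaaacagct
Txnrd1, chr7:22755954-22756002, minus strand: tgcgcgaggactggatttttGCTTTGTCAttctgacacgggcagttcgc
Prdx1, chr5:135383751-135383799, plus strand: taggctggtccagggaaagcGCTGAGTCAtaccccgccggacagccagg
Srxn1, chr3:161064730-161064776, plus strand: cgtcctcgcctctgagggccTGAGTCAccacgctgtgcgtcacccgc
The Gclm match begins 172 bases before the start, the Txnrd1 match 78, the Prdx1 match 135 and the Srxn1 match 62. Slc7a11, Gclc, Nqo1 and Sqstm1 did not have these letters in their windows. A match describes the letters only, and elements farther from the start were not searched.

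None of the 16 probe sets passed the test between GnRH and control. Hmox1, Srxn1 and Txnrd1 had lower mean levels with GnRH by 1.47-fold, 1.37-fold and 1.29-fold on their brightest probe sets, and the glutathione genes Gclc, Gclm and Gsr differed by 0.02 to 0.11 on the log2 scale. By limma with Benjamini-Hochberg adjustment over all probe sets, 0 of 16 members had an adjusted p under 0.05, the threshold for a call, against 0.464% of all probe sets (0.0419% with lower values), and their adjusted p-values ran from 0.187 to 0.995. At an unadjusted limma p under 0.05 there were 4 of 16, all lower with GnRH, where 12.3% of all probe sets passed, 5.66% lower and 6.6% higher. The 3 GnRH arrays lay below all 3 controls in the same number, 4 (25%), against 9.62% of all probe sets, and above them in 0, against 7.06%. These 4 stand for 3 genes, since 2 are probe sets of Txnrd1. The median log2 difference was -0.08 over the 16, beside -0.025 over all probe sets, and 12 of 16 (75.0%) lay below 0, beside 57.4% of all.

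**Figure D1:**
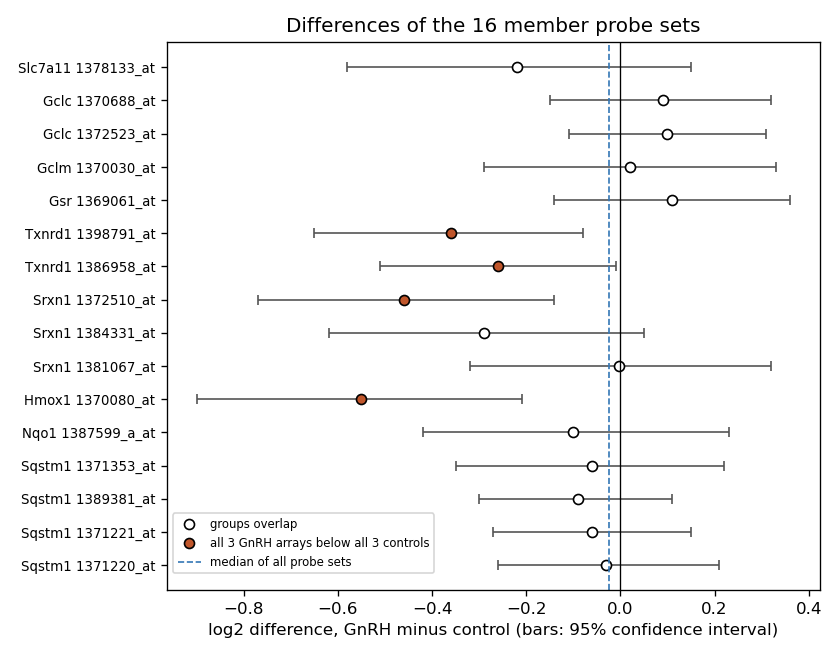
Log2 difference between GnRH and control (x axis) for each of the 16 member probe sets (y axis), with bars for the 95% confidence interval of limma, filled points where all 3 GnRH arrays lay below all 3 controls, and a dashed line at the median of all probe sets (-0.025). The 4 filled points, 2 of Txnrd1 and 1 each of Srxn1 and Hmox1, lie between -0.55 and -0.26, and the other 12 have intervals that include 0.

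Hmox1, the inducible heme oxygenase that opens the heme ring and releases iron, carbon monoxide and biliverdin, had the largest difference of the members in the fit of all 6 arrays; without control 3 and with array weights that of Srxn1 was larger. Its probe set 1370080_at read 10.48, 10.57 and 10.94 in controls 1 to 3 and 10.27, 9.79 and 10.26 in GnRH 1 to 3. On the linear scale these are intensities of 1420, 1520 and 1970 against 1240, 888 and 1230. Every GnRH array was thus below every control, with GnRH 2 the lowest and control 3 the highest of the 6. The difference was -0.55 ± 0.15 (SE, n = 3 per group; 95% interval -0.90 to -0.21; limma adjusted p = 0.187). It stayed below 0 whichever array was left out, from -0.65 to -0.40, and was smallest without GnRH 2 (-0.40) and without control 3 (-0.41), in no case with a call (limma adjusted p from 0.0930 to 0.581). Hmox1 was called with array weights, at -0.45 (limma adjusted p = 0.0389), a fit that gave control 3 the lowest weight of all arrays, 0.298. It was also called with the Xist level as a covariate, at -0.81 (limma adjusted p = 0.0470), where control 3 alone among the controls matches the GnRH arrays in Xist. Of all probe sets, 9.73% passed with array weights (4.05% with lower values) and 1.22% with the covariate (0.216% with lower values).

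Hmox1 is abundant in macrophages, which clear heme from aged red cells. The 16 macrophage and leukocyte markers summed on the log2 scale to 11.07, 11.17 and 11.29 in controls, and with GnRH to 11.19, 11.07 and 11.29. The groups thus overlapped in summed level, and 0 of 16 markers passed the test. Of the 16, 11 differed by less than 0 and 5 by more, with a median of -0.055, beside 57.4% of all probe sets below 0. Csf1r (-0.21) and Cd163 (-0.18) were lower without overlap, which is 2 of 16, beside 9.62% of all probe sets, and 0 were higher without overlap. The 4 measured red blood cell markers summed to 11.87, 11.68 and 11.01 against 11.37, 11.90 and 11.04 and also overlapped. Markers of the posterior lobe and glia (9 measured, 0 past the threshold) summed to 10.31, 10.59 and 10.66 in controls and 10.29, 10.23 and 9.95 with GnRH, and those of folliculostellate and stem-like cells (7 measured, 0 past the threshold) to 10.87, 10.85 and 11.05 against 10.81, 10.61 and 10.74. In both lists the summed level of every GnRH array was below that of every control, as the levels of Hmox1, Srxn1 and Txnrd1 were, but the markers themselves went both ways. Of the 9 posterior lobe and glial markers 4 differed by less than 0 and 5 by more, with a median of 0.050. The glial filament gene Gfap (-1.97) and the vasopressin gene Avp (-0.57) were lower, without overlap. The neurofilament genes Nefl (0.45) and Nefh (0.12) were higher, also without overlap. The oxytocin gene Oxt differed by -0.43, with overlap. Of the 7 folliculostellate markers 5 lay below 0, with a median of -0.10. The part of these cells in the results was not tested.

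The thioredoxin arm held the other members whose groups did not overlap. Txnrd1, the cytosolic thioredoxin reductase that passes electrons from NADPH to thioredoxin, had 9.46, 9.54 and 9.78 in controls on probe set 1398791_at, and 9.35, 8.97 and 9.37 with GnRH. Its difference was -0.36 ± 0.13 (SE; 95% interval -0.65 to -0.08; limma adjusted p = 0.297). Probe set 1386958_at of Txnrd1 read 8.92, 9.03 and 9.22 against 8.90, 8.61 and 8.87, and its difference was -0.26 ± 0.11 (limma adjusted p = 0.380). On both, the arrays with the highest and lowest values were control 3 and GnRH 2, as for Hmox1, and GnRH 1 lay close under control 1. Without GnRH 2 the differences were -0.23 and -0.17, and without control 3 they were -0.27 and -0.18 (limma adjusted p from 0.196 to 0.764 over these 4 fits).

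Srxn1, sulfiredoxin, repairs peroxiredoxins whose active cysteine has been overoxidised. On its brightest probe set, 1372510_at, it had 9.44, 9.72 and 9.10 in controls and 9.05, 8.86 and 8.98 with GnRH. The groups did not overlap, but control 3 was only just above GnRH 1. The difference was -0.46 ± 0.14 (SE; 95% interval -0.77 to -0.14; limma adjusted p = 0.240). Probe set 1384331_at read 8.19, 8.31 and 7.64 against 7.82, 7.78 and 7.69, so that control 3 was below all GnRH arrays and the groups overlapped (-0.29 ± 0.15, limma adjusted p = 0.482). Probe set 1381067_at, among the dimmest 25% of all probe sets, read 4.24, 3.73 and 3.67 against 3.75, 3.92 and 3.97. It did not show the difference of the other 2 (-0.003, limma adjusted p = 0.995). Averaged over its 3 probe sets, Srxn1 differed by -0.25.

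Control 3 decided whether Srxn1 was called. Without it, the difference was -0.62 on 1372510_at (limma adjusted p = 0.00815) and -0.49 on 1384331_at (limma adjusted p = 0.0110), and these were the 2 members past the threshold of the 16, where 7.44% of all probe sets passed and 2.49% passed with lower values. With array weights Srxn1 was also called on both, at -0.64 and -0.46 (limma adjusted p = 0.00620 and 0.0204), which with Hmox1 made 3 of 16 members, all lower, where 9.73% of all probe sets passed and 4.05% with lower values. With the Xist covariate the first difference was -0.16 and the second 0.09, with no call (limma adjusted p = 0.743 and 0.858). Leaving out control 3 sets 2 arrays with low Xist against 3 with high Xist, so GnRH and the Xist level cannot be told apart in that fit. Fibroblast and pericyte markers (10 measured) were likewise low in control 3, where their summed log2 level was 10.24 beside 10.72 and 10.74 in controls 1 and 2, and 10.54, 10.60 and 10.31 in the GnRH arrays, and their part in the Srxn1 values was not tested.

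**Figure D2:**
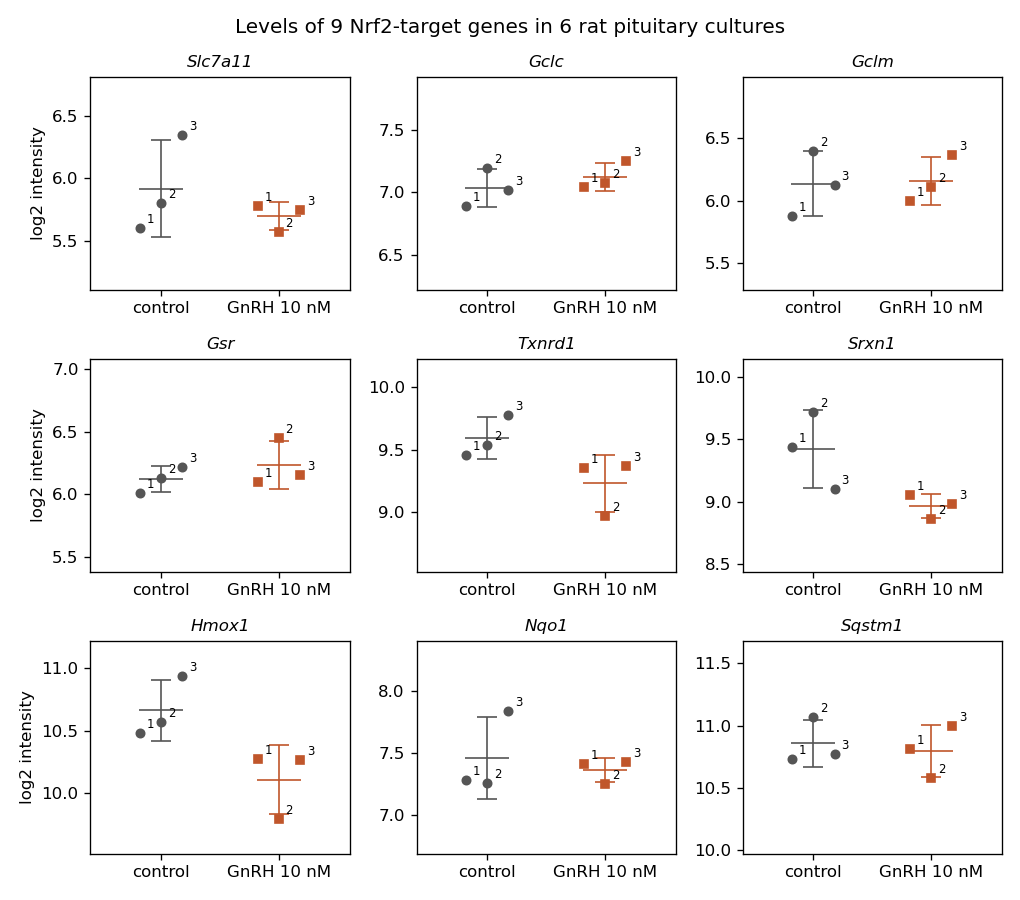
Log2 intensity (y axis) of the brightest probe set of each of the 9 genes in control cultures (circles) and cultures with 10 nM GnRH (squares), numbered by replicate, with bars for mean ± SD (n = 3). Each panel spans the same log2 range around its own centre; in Hmox1, Txnrd1 and Srxn1 the squares lie below the circles, and in the other 6 genes they overlap.

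With all 6 arrays, no difference beyond the replicate spread was detected in genes of cystine import and glutathione synthesis. Slc7a11, the cystine carrier of the xCT exchanger, had 5.60, 5.80 and 6.35 in controls on 1378133_at, and 5.78, 5.57 and 5.75 with GnRH. Control 3 was the highest array and the other 5 lay within 5.57 to 5.80. The difference was -0.22 ± 0.17 (limma adjusted p = 0.630). Without control 3 it was -0.00068 (limma adjusted p = 0.998), in a fit where the Xist level divides the groups. With the Xist covariate it was -0.61 and was called (limma adjusted p = 0.0472). That call also depends on control 3, which alone among the controls matches the GnRH arrays in Xist. Slc7a11 was 1 of 2 members called there with Hmox1, both lower, where 1.22% of all probe sets passed and 0.216% with lower values.

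Gclc, the catalytic subunit of glutamate-cysteine ligase, the rate-limiting enzyme of glutathione synthesis, had 6.89, 7.19 and 7.02 in controls on 1370688_at, and 7.04, 7.07 and 7.25 with GnRH. On 1372523_at it had 6.96, 6.94 and 6.97 against 6.94, 7.02 and 7.21. The groups overlapped on both, and the differences were 0.09 ± 0.10 and 0.10 ± 0.09 (limma adjusted p = 0.776 and 0.697). Gclm, the modifier subunit that makes this ligase more efficient, had 5.88, 6.40 and 6.13 against 6.0, 6.11 and 6.37 on 1370030_at. Its spread within each group was far larger than the difference of 0.02 ± 0.14 (limma adjusted p = 0.964). Gsr, the reductase that regenerates glutathione from its disulfide, had 6.01, 6.13 and 6.22 against 6.10, 6.45 and 6.15 on 1369061_at, with GnRH 2 the highest array (0.11 ± 0.11, limma adjusted p = 0.723). The 95% intervals of these 4 probe sets, as fold of GnRH over control, ran from 0.820 to 1.28 in all, so larger changes of the group means lay outside them.

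Nqo1, which reduces quinones by 2 electrons at once and so avoids reactive semiquinones, had 7.28, 7.26 and 7.84 in controls on 1387599_a_at, and 7.41, 7.25 and 7.43 with GnRH. Control 3 was again the highest array, and the other 5 overlapped. The difference was -0.10 ± 0.15 (limma adjusted p = 0.825) and changed sign without control 3, to 0.09 (limma adjusted p = 0.554). With the Xist covariate it was -0.44 ± 0.11, also without a call (limma adjusted p = 0.101).

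Sqstm1 encodes p62, an autophagy receptor that binds Keap1 and carries it to degradation, and is itself an Nrf2 target. Its brightest probe set, 1371353_at, had 10.73, 11.07 and 10.77 in controls and 10.81, 10.58 and 11.00 with GnRH, with full overlap. Probe set 1389381_at had 8.62, 8.66 and 8.43 against 8.52, 8.43 and 8.47. Probe sets 1371221_at and 1371220_at, both annotated to the same sequence record, read 6.66 to 6.90 and 5.12 to 5.40 over the 6 arrays. The 4 differences lay between -0.09 and -0.03, with SEs of 0.09 to 0.13 (limma adjusted p from 0.712 to 0.937).

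Control 3 did not differ from the other controls in the same direction in all members. Slc7a11, Hmox1, Nqo1 and both Txnrd1 probe sets were highest in control 3, which makes 5 of 16 (31.2%), beside 18.1% of all probe sets. Control 3 exceeded the mean of controls 1 and 2 by 0.65 in Slc7a11, 0.57 in Nqo1, 0.42 in Hmox1 and 0.28 and 0.24 in Txnrd1. In Srxn1 it lay below them instead, with gaps of -0.49 and -0.61 on the 2 brighter probe sets, and the gaps on all 4 Sqstm1 probe sets were -0.21 to -0.13. For 10 of the 16 probe sets the gap between control 3 and the other controls was larger than the difference between the groups. The share over all probe sets was not counted. A gap of 1 array against 2 also varies more than a difference of 3 against 3, so this count does not set the members apart. GnRH 2 was the lowest array in 7 of 16, beside 19.1% of all probe sets.

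**Figure D3:**
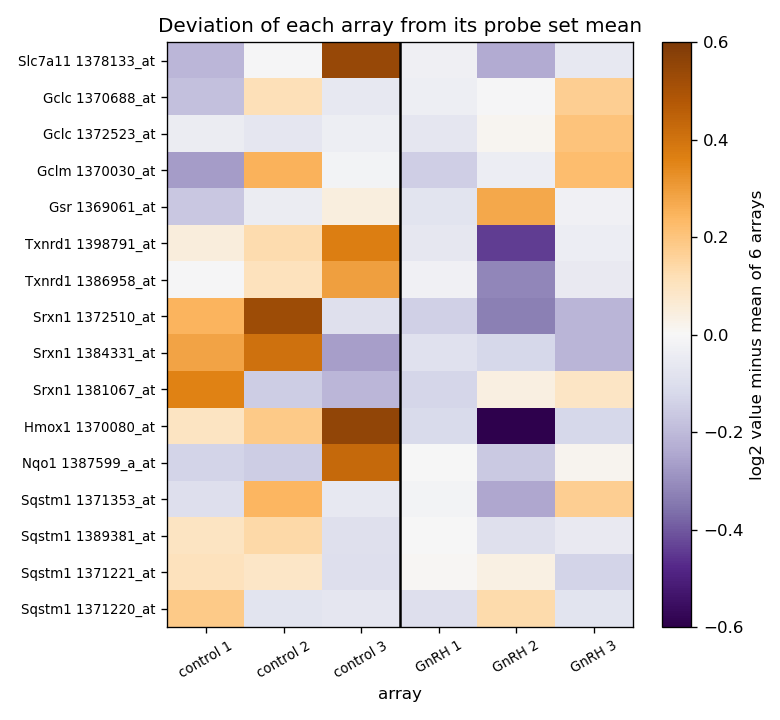
Log2 value of each array (x axis) minus the mean of the 6 arrays, as colour from -0.6 to 0.6, for the 16 member probe sets (y axis), with a line between controls and GnRH arrays. Control 3 is high in Slc7a11, Txnrd1, Hmox1 and Nqo1 and low in the 2 brighter Srxn1 probe sets, and GnRH 2 is lowest in Hmox1 and Txnrd1.

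**Figure D4:**
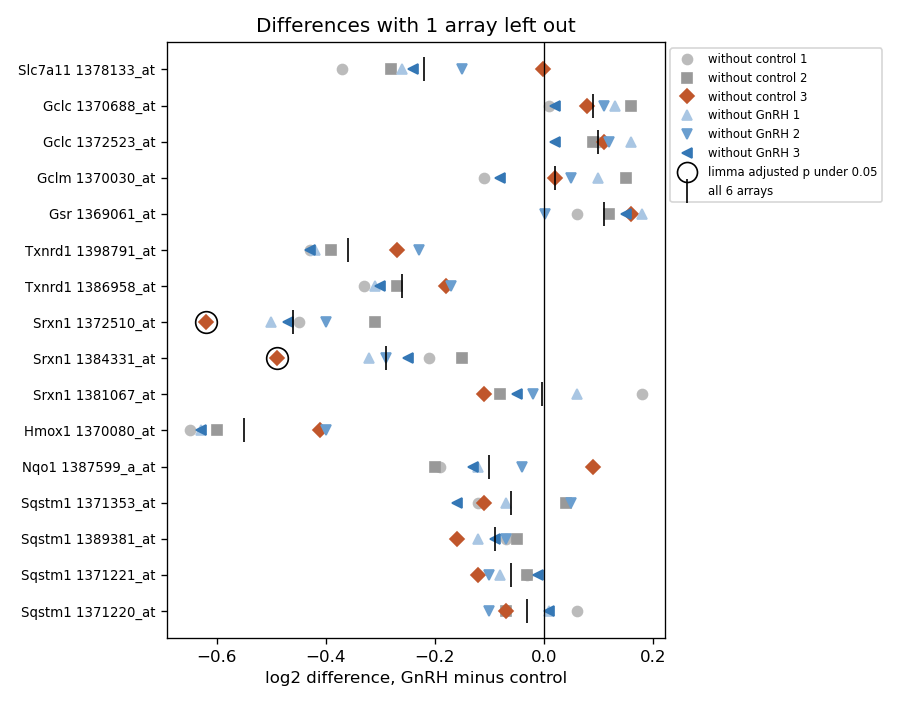
Log2 difference between GnRH and control (x axis) for the 16 member probe sets (y axis) with all 6 arrays (vertical ticks) and with each array left out in turn (symbols), circled where the limma adjusted p was under 0.05. The 2 circled points are Srxn1 without control 3 (-0.62 and -0.49), while Hmox1 and Txnrd1 stay between -0.65 and -0.17 with no call.

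The regulators of the pathway did not pass the test either, but Nfe2l2 and Keap1 had differences of opposite sign. Nfe2l2, which encodes Nrf2 itself, had 8.21, 8.42 and 8.54 in controls and 8.13, 7.78 and 8.11 with GnRH, and the groups did not overlap (-0.38 ± 0.12, limma adjusted p = 0.247). Its highest and lowest arrays were control 3 and GnRH 2, the same as for Hmox1 and Txnrd1. Keap1, the sensor that keeps Nrf2 low, had 7.22, 7.10 and 6.85 against 7.34, 7.39 and 7.41, again without overlap (0.32 ± 0.11, limma adjusted p = 0.264), and its other probe set differed by 0.35. Cul3, the scaffold of the ligase, had 8.49, 8.60 and 8.64 against 8.75, 8.90 and 8.74 (0.22 ± 0.09, limma adjusted p = 0.361), with 0.10 and 0.07 on its dimmer probe sets. Without control 3 these 3 differences were -0.31, 0.22 and 0.25 with no call (limma adjusted p from 0.121 to 0.150). With the Xist covariate they were -0.52, 0.51 and 0.17, also with no call (limma adjusted p = 0.156, 0.0508 and 0.659). Nfe2l2 was called only with array weights (limma adjusted p = 0.0422, with 0.0422 to 0.660 over all alternatives). In that fit, which gave control 3 the lowest weight, 9.73% of all probe sets passed and 4.05% with lower values. Of 12 regulators measured, 0 passed, and the median log2 difference was 0.085. The repressor Bach1 and the small Maf proteins Mafg, Mafk and Maff had overlapping groups.

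Beyond the members, 93 of 100 genes of 5 related lists were measured and 0 passed with all arrays. At an unadjusted limma p under 0.05 there were 17 (18.3%), beside 12.3% of all probe sets, and in 17 the groups did not overlap (18.3%, beside 16.7%). Among 27 other Nrf2 targets, Gpx2, a selenium-containing peroxidase, had the smallest p, with 7.83, 8.68 and 8.25 in controls against 7.39, 7.35 and 7.57 with GnRH. Every GnRH array was below every control (-0.82 ± 0.18, limma adjusted p = 0.0855). Gpx2 passed without control 3 at -0.82 (limma adjusted p = 0.0296), without control 1 and with array weights. Of all probe sets 7.44% passed without control 3, where the Xist level divides the groups, and 9.73% with array weights. With the Xist covariate Gpx2 differed by -0.80, without a call (limma adjusted p = 0.166). The aldo-keto reductase Akr1b8 differed by -0.33 and the efflux pump Abcc3 by 0.72, without passing (limma adjusted p = 0.326 and 0.207). The median of this list was -0.049, with 16 below 0 and 11 above.

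Among other antioxidant proteins, the genes with the smallest p had higher values with GnRH. Of 29 measured these were Prdx4, a peroxiredoxin of the endoplasmic reticulum (0.78 ± 0.23), the secreted glutathione peroxidase Gpx3 (0.72 ± 0.19) and the lipid peroxide reductase Gpx4 (0.59 ± 0.17), with limma adjusted p from 0.154 to 0.211. Gpx4 did not show this on its dimmer probe set (-0.12). In Gpx3, control 3 at 11.27 lay next to GnRH 1 to 3 at 11.31, 11.63 and 11.52, while controls 1 and 2 had 10.48 and 10.56. In Prdx4 control 3 at 9.23 was above GnRH 1 at 9.13. Without control 3 these 3 genes rose by 1.10 for Prdx4, 0.97 for Gpx3 and 0.84 for Gpx4 (limma adjusted p from 0.000621 to 0.000849), and Abcc3 rose by 1.01, as did Glrx5, a mitochondrial glutaredoxin named here after its values were seen, by 0.35 (limma adjusted p = 0.0332). In that fit 7.44% of all probe sets passed and the Xist level divides the groups. With the Xist covariate the differences were 0.20 for Prdx4, 0.26 for Gpx3, 0.14 for Gpx4, 0.19 for Abcc3 and 0.03 for Glrx5, with no call (limma adjusted p from 0.517 to 0.958). The list had a median of 0.040.

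Slc7a11 and Sqstm1 also answer to Atf4, the transcription factor of amino acid shortage and endoplasmic reticulum stress, so its genes were read beside them. With all 6 arrays the 12 measured had differences below 0 (57.4% of all probe sets did), with a median of -0.16, and 0 passed. Without control 3, where the Xist level divides the groups, this held for 9 of 12, with a median of -0.14. Atf4 was then at 0.06, Asns at 0.13 and Slc3a2 at 0.07. With the Xist covariate 11 of 12 lay below 0, with a median of -0.19, and 0 passed. The share of all probe sets below 0 was not counted without control 3 or with the covariate, so these counts do not set the list apart. The serine synthesis enzyme Psat1 differed by -0.42 ± 0.11 with all 6 arrays, and the stress factor Ddit3 by -0.38 ± 0.14. Atf3 differed by -0.28 ± 0.11 (limma adjusted p = 0.141, 0.307 and 0.333 for the 3 genes). Each had all GnRH arrays below the controls, whereas Atf4 itself overlapped (-0.03). Psat1 and Atf3 were called with array weights, where control 3 had the lowest weight and 9.73% of all probe sets passed, 4.05% with lower values. The 13 measured genes of heme handling and autophagy had a median of 0.014, and the transferrin receptor Tfrc had the smallest p (-0.19 ± 0.12, limma adjusted p = 0.546).

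**Figure D5:**
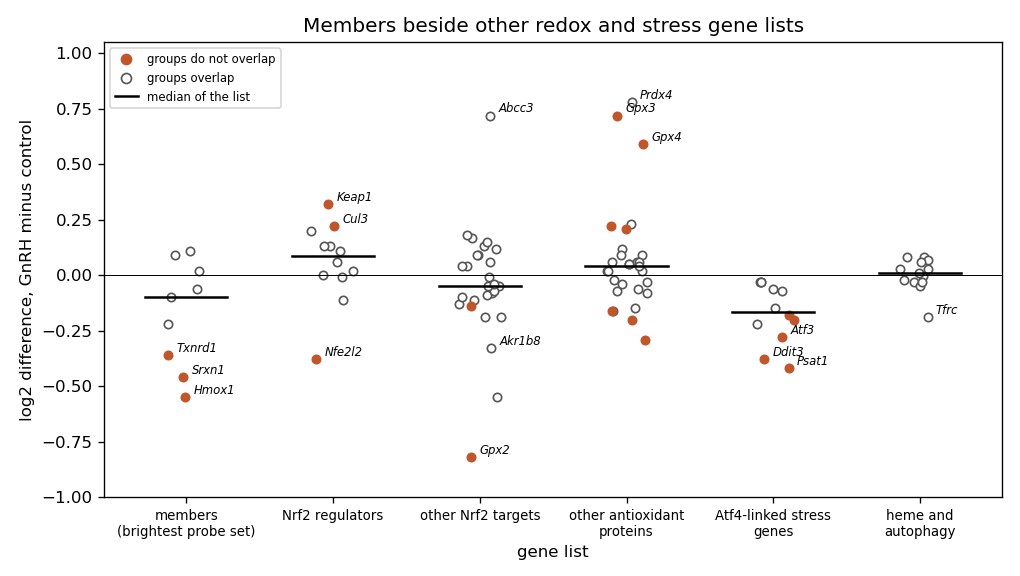
Log2 difference between GnRH and control (y axis) of single genes, each by its brightest probe set, in the member genes and 5 related lists (x axis), filled where the groups did not overlap and with a bar at the median of each list. No point passed the test with all 6 arrays. The 12 Atf4-linked genes lie below 0 here, of which 3 lay above 0 without control 3 and 1 with the Xist covariate. The Nrf2 regulators hold Nfe2l2 at -0.38 and Keap1 at 0.32.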

How the data were processed

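Per the labels' protocols, total RNA was taken with Trizol, cleaned on a column and made into biotin-labelled cRNA for 1-colour arrays. Per the submitters' processing notes the authors used RMA, and the deposited values are intensities on a linear scale. The software, its version and filters: not given in the sources used here. The table has 31042 probe sets, 0 missing values and no detection calls, and array medians were 64.5 to 67.0. Of the probe sets, 20826 had 1 symbol, 436 had several and 9780 were unlisted; symbols were updated through gene identifiers.

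Values were turned into log2 with no pseudocount and fitted with limma 3.58.1 in R 4.3.3 (lmFit, eBayes; 2-sided, no covariate, no filter), with Benjamini-Hochberg adjustment over all probe sets and a threshold of 0.05. The fit was tested on simulated data. Alternatives were other scalings, a pseudocount, leaving out the dimmest 25% of probe sets, other variance models, a block for the replicate number, array weights, Xist as a covariate and each array left out. A gene with several probe sets stands for the one with the highest mean. Named list genes are those past the threshold, otherwise up to 3 with the smallest p. Members and lists were chosen with earlier results of these data known. All 7 marker lists (62 measured genes, 0 past the threshold) cover pituitary hormones, macrophages, red blood cells, endothelium, fibroblasts, folliculostellate cells and the posterior lobe; endothelial markers overlapped between the groups in summed level (10.28 to 10.43 in controls, 10.38 to 10.54 with GnRH). The number of arrays limits the precision.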

Additional observations from a re-analysis of the deposited data

How the results depend on the processing

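Over all probe sets, 144 passed; this was 90 with quantile normalization, 93 with cyclic loess, 74 with a pseudocount of 16, 3020 with array weights, 378 with the Xist covariate, 341 at an adjusted p under 0.10, 3808 at an unadjusted p under 0.05, and 20 (without GnRH 2) to 2309 (without control 3) with 1 array left out. Of the 16 members 0 passed; this was 3 with array weights, 2 with the Xist covariate, 4 at the unadjusted threshold and 0 to 2 with 1 array left out (2 without control 3). Their median difference was -0.08, turned to 0.03 with the Xist covariate and ran from -0.11 to -0.07 with 1 array left out. The cause was not tested.

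Hmox1, both Txnrd1 probe sets, Srxn1 1372510_at, Slc7a11, Gclc 1372523_at and Gsr kept their sign in 16 of 16 alternatives. A kept sign says little by itself, since Slc7a11 came to -0.00068 without control 3 and Gsr to 0.0016 without GnRH 2. Small differences turned: Srxn1 1381067_at to 0.01 with median centring, 0.05 with quantile normalization, 0.05 with cyclic loess, 0.03 with array weights and 0.18 with the Xist covariate; Sqstm1 1371220_at to 0.01, 0.02 and 0.05 with quantile normalization, cyclic loess and the covariate. Array weights turned Gclc 1370688_at to -0.01, Gclm to -0.14 and Nqo1 to 0.06. The covariate turned Srxn1 1384331_at to 0.09, and Sqstm1 1371353_at, 1389381_at and 1371221_at to 0.02, 0.03 and 0.05. With 1 array left out, ranges that crossed 0 were -0.11 to 0.15 for Gclm, -0.11 to 0.18 for Srxn1 1381067_at, -0.20 to 0.09 for Nqo1, -0.16 to 0.05 for Sqstm1 1371353_at and -0.10 to 0.06 for Sqstm1 1371220_at. In none of these was the turned difference called. Srxn1 1381067_at has no value without dim probe sets.

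The titles number the samples 1 to 3 in each group. Deviations of same-numbered samples from their group means correlated at 0.159, -0.049 and 0.156, and those of differently numbered samples at -0.232 to 0.18. Control 3 stands apart from the other controls and shapes these values, so they cannot decide whether the samples are paired. The numbers were not taken as pairs. With the replicate number as a block 215 probe sets and 0 members passed.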
